A study of Homo sapiens with 4 samples.

Results

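The genes described here are 40 genes that act when DNA breaks or is crosslinked: the homologous recombination genes around BRCA1 and BRCA2, the genes that sense and trim a broken end, the end joining genes, the Fanconi genes, the damage kinases, and MSH6, NEIL1 and PARP1. They are a list of symbols set by function, drawn up with earlier results of these data known. All 40 were found among the 25027 symbols or unmatched identifiers of the deposited gene tables, and 39 of them averaged at least 1 FPKM across libraries, the minimum for being compared, which 11631 genes in all reached. FPKM is a level scaled by the length of the transcript and by the number of mapped reads of the library. NEIL1, a glycosylase that removes oxidised bases, was the gene left out, at 0.347 and 0.403 FPKM at 24 h (control, then SAF-A siRNA) and at 0.368 FPKM and listed at 0 at 48 h.

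The study measured RNA in RPE1 cells, an hTERT-immortalised line from human retinal pigment epithelium, after transfection of 10 nM Stealth siRNA with Lipofectamine RNAi MAX. The siRNA was either a negative control or 1 duplex against SAF-A, the product of HNRNPU, a nuclear protein that binds RNA and chromatin. Total RNA was taken at 24 h and at 48 h, depleted of ribosomal RNA and read as 50-base single-end reads. The 2 siRNAs and 2 times make 4 groups, all in the same line and with 1 library each, so no test between groups is possible, no p-value is given, and a single SAF-A duplex stands for the depletion.

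A double-strand break is held and signalled by the MRN complex and the kinase ATM, and is then either joined directly, with the Ku heterodimer and DNA ligase IV, or trimmed to single strands and repaired by copying from the sister chromatid. The Fanconi proteins detect crosslinks between the strands, mark the FANCD2 and FANCI pair with ubiquitin and hand the lesion to nucleases and to recombination. Recombination needs a sister chromatid, so many of its genes, and several Fanconi genes, are known to be expressed most in S and G2 phase, whereas the end joining genes are used throughout the cell cycle.

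Before the results, the libraries themselves need describing. The deposited values corresponded to 28083822 to 30701282 mapped reads in 3 libraries but to 1216740 in that of SAF-A siRNA at 48 h, which therefore stands apart. In it, 7 of the 39 genes rested on under 10 estimated reads and 27 on under 50, and there is no other SAF-A library at 48 h with which to repeat the 48 h values. The 24 h comparison and the comparison of the controls do not use it. The targeted gene, HNRNPU, was at 11.4% of its control at 24 h (10.4 against 91.2 FPKM) and at 10.9% at 48 h (9.24 against 84.6 FPKM), so both libraries labelled SAF-A showed the depletion. The line's epithelial and mesenchymal genes KRT8, KRT18, VIM and CAV1 were expressed (15.4 to 3312 FPKM) but differed from control in the SAF-A 48 h library, with log2 changes of -1.98, -3.24, 1.06 and -1.28, the last 2 with separate intervals. The part of this in the 48 h results below was not tested. The pigment epithelium regulators MITF and OTX2 were low (2.16 to 9.01 FPKM), and the visual cycle enzyme RPE65, a defining marker of the tissue, was listed at 0 in every library. Of the 13 markers listed for the line and tissue, 6 averaged 1 FPKM or more. BEST1, RLBP1, PMEL, TYR, TTR and TERT, like RPE65, did not. Of the leukocyte, endothelial, neuronal and hepatocyte markers, CD68 (at most 11.3 FPKM) and SYT1 (at most 5.66 FPKM) alone averaged 1 FPKM or more.

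The repair genes were slightly lower with SAF-A siRNA at 24 h and much more unevenly lower at 48 h. Changes are differences in log2(FPKM + 1), a scale that understates the change of low genes, and a gene was counted when it differed by at least 2-fold. At 24 h none of the 39 genes was 2-fold lower or higher, against 1.25% and 1.83% of all 11631 tested genes, and all 39 lay within 1.5-fold of control. Their median log2 change was -0.17, with 33 below 0 (84.6%). That of all tested genes was -0.06, with 62.9% below 0. Rescaling to TPM, in which all values of a library sum to a constant, moved the median of all genes to -0.22 and put all 39 genes below 0. Genes under 300 nt held 59.9% of the summed FPKM in the control 24 h library and 63.5% in the SAF-A 24 h library. The TPM scale therefore depends largely on such short RNAs. Centring on genes of at least 5 FPKM left 30 below 0. The shares of all tested genes below 0 after these rescalings are not given here. In these bulk samples, fewer cells of a type and less RNA per cell cannot be told apart.

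Small as they were, some of the 24 h differences exceeded the deposited 95% intervals, which describe how precisely a level is known inside 1 library and carry no variation between cultures. For 14 of the 39 genes the intervals of the SAF-A and control libraries did not overlap, and all 14 were lower with SAF-A siRNA, whereas among all tested genes 17.5% were lower and 8.93% higher by this criterion. The 14 were BRCA2, XRCC2, XRCC3, NBN, BLM, XRCC5, XRCC6, NHEJ1, FANCE, FANCG, FANCM, ATM, ATR and PARP1, with log2 changes from -0.53 (NBN) to -0.09 (ATM). The 14 genes came from all 6 roles. All of them except XRCC3 and BLM have 1 RefSeq transcript, whereas 23 of the 39 genes have 2 or more. Bounds were summed over transcripts, which widens the intervals of genes with several. RAD54L, at -0.44 with 2 transcripts, had overlapping intervals, while ATM, at -0.09 with 1 transcript, did not. Which genes are among the 14 thus depends in part on the annotation.

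At 48 h, 12 of the 39 genes were at least 2-fold lower with SAF-A siRNA and none was 2-fold higher, while 20.1% of all tested genes were lower and 14.2% higher. The 12 were XRCC2, RAD51AP1, XRCC3, BRCA2, EXO1, BLM, NBN, LIG4, XRCC6, FANCA, FANCM and CHEK2, and the intervals were apart for all 12. The median log2 change of the 39 was -0.62 and that of all tested genes -0.12. Among 9861 genes of at least 300 nt and of the same range of mean level, the median was -0.07 and 18.1% were lower. Without the 2-fold criterion, the intervals were apart for 18 lower genes and for 2 higher ones, ATM and XRCC4, against 25.6% and 21.9% of all tested genes.

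The direction was mostly the same at both times, which use separate control libraries. In 30 of the 39 genes (76.9%) the value was below control at 24 h and at 48 h, as it was in 38.8% of all tested genes. At each time alone 33 of the 39 (84.6%) were below control, and of all tested genes 62.9% at 24 h and 54.1% at 48 h. The shares below at both times largely follow from these, so they do not show that the direction of single genes recurs. MRE11, XRCC4 and FANCF were above control at both times, RAD50, NHEJ1 and ATM below at 24 h and above at 48 h, and BRCA1, BARD1 and LIG4 the reverse. After rescaling to TPM the genes above control at 24 h were below it.

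Between the control libraries the repair genes differed little with time. None of the 39 was 2-fold higher or lower at 48 h than at 24 h (1.79% and 1.36% of all tested genes), all 39 lay within 1.5-fold, and the median log2 change was -0.09 against 0.03 for all tested genes. Of the 39, 29 were below 0 as deposited (74.4%, against 43.6% of all tested genes) and 20 after rescaling to TPM. Intervals were apart for 6 lower genes (FANCE, FANCF, BARD1, PALB2, BRIP1 and BRCA2, -0.58 to -0.18) and for XRCC4 (0.48) and FANCL (0.38) above, where 12.7% of all tested genes were lower and 18.3% higher. In the SAF-A libraries, 11 of the 39 were at least 2-fold lower at 48 h than at 24 h and 1, XRCC4, was higher, against 17.8% and 15.1% of all tested genes, with separate intervals for 10 of the 11 and for XRCC4. The 11 were all among the 12 that were lower than control at 48 h. FANCM, the remaining 1 of the 12, stood at -0.99.

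**Figure D1:**
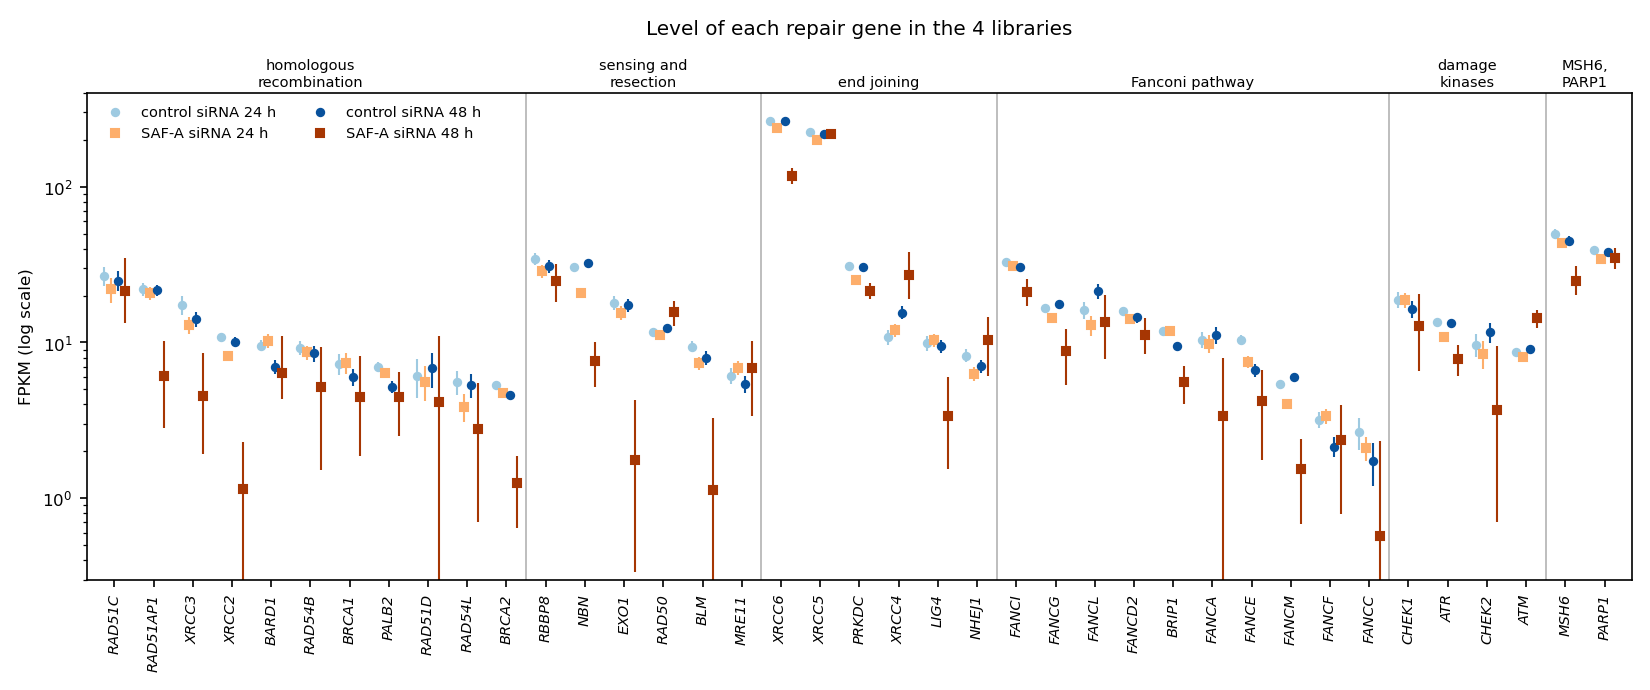
FPKM (log axis, cut off at its lower end) of the 39 compared repair genes, grouped by role, in the 4 libraries. Points are the single libraries and vertical lines the deposited 95% intervals, some of which run below the axis; PRKDC has no usable interval in the control 24 h library. The 3 deep libraries sit close together for nearly every gene, and the SAF-A 48 h point lies below them for EXO1, XRCC2, BLM and NBN and above them for XRCC4 and ATM.

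The plot of levels shows 2 features that the medians hide. The genes spanned a wide range, from 1.74 FPKM (FANCC) to 262.7 FPKM (XRCC6) in the control 48 h library. The 48 h differences were also not ordered by level, since XRCC6 was 2-fold lower and XRCC5, at nearly the same level in control cells, was not.

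Homologous recombination genes were below control at 48 h in 11 of 11 cases, against 54.1% of all tested genes, with a median log2 change of -0.63. At least 2-fold lower were 4 of 11 (36.4%, against 20.1% of all tested genes): XRCC2, RAD51AP1, XRCC3 and BRCA2. XRCC2 and XRCC3 encode subunits of small complexes that act on the single-stranded DNA of a trimmed break. XRCC2 (chromosome 7, 152343587 to 152373250, minus strand) was at 10.8 FPKM in control and 8.24 FPKM in SAF-A cells at 24 h, then at 10.1 and 1.15 FPKM at 48 h. It was thus lower at both times, by log2 changes of -0.36 and -2.37, and the last value came from about 4 reads with an upper bound of 2.30 FPKM. XRCC3 (chromosome 14, 104163954 to 104181823, minus strand) was at 17.4 FPKM (control) and 13.0 FPKM (SAF-A siRNA) at 24 h, then at 14.1 and 4.56 FPKM at 48 h. The same pattern held for it, with log2 changes of -0.39 and -1.44.

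BRCA2, the mediator that prepares the trimmed strand for exchange, and RAD51AP1, which stimulates strand exchange, differed mainly at 48 h. BRCA2 (chromosome 13, 32889617 to 32973809, plus strand) was at 5.36 FPKM (control) and 4.72 FPKM (SAF-A siRNA) at 24 h, then at 4.61 and 1.25 FPKM at 48 h. RAD51AP1 (chromosome 12, 4647950 to 4669213, plus strand) was at 22.0 FPKM (control) and 20.8 FPKM (SAF-A siRNA) at 24 h, then at 21.8 and 6.12 FPKM at 48 h. Only the SAF-A 48 h library was low for either gene, at 27.1% and 28.1% of its control.

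The 2 subunits of the BRCA1 ubiquitin ligase were among the least different. BARD1 had the highest log2 change of the role at both times, 0.10 and -0.11, with 9.55 and 10.3 FPKM at 24 h and 6.92 and 6.36 FPKM at 48 h. BRCA1 was at 7.30 FPKM (control) and 7.40 FPKM (SAF-A siRNA) at 24 h, then at 6.02 and 4.49 FPKM at 48 h, and its intervals overlapped. A further row of the tables, NR_027676, matched no symbol, covers 96.5% of the exon bases of BRCA1 on the same strand, and stood at 3.45, 2.17 and 3.60 FPKM in the 3 deep libraries and effectively at 0 in the SAF-A 48 h library. With that row added, a choice made after its values were seen, the 48 h log2 change of BRCA1 went from -0.35 to -0.95 and the intervals no longer overlapped.

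The remaining homologous recombination genes stayed above the 2-fold limit. RAD54L, a motor protein that acts during strand exchange, had the lowest log2 change of the role at 24 h, -0.44, with 5.59 and 3.85 FPKM at 24 h and 5.36 and 2.80 FPKM at 48 h. Its intervals met by a narrow margin at 24 h, where the control value reached down to 4.59 FPKM and the SAF-A value up to 4.64 FPKM. The other motor protein, RAD54B, the BRCA1 and BRCA2 linker PALB2, and RAD51C and RAD51D, subunits of the complexes that hold XRCC2 and XRCC3, had 48 h log2 changes from -0.63 to -0.18, with overlapping intervals in each case. The tables also list FSBP on 63.7% of the exon bases of RAD54B, at under 0.5 FPKM.

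Break sensing and resection genes had the lowest median of the 6 roles. At 48 h, 3 of 6 were at least 2-fold lower (50.0%, against 20.1% of all tested genes) and 2 of 6 were above control within their intervals, and the median log2 change was -1.13. EXO1, the exonuclease that lengthens the single strand, had the largest log2 change of all 39 genes at 48 h. EXO1 (chromosome 1, 242011493 to 242053241, plus strand) was at 18.0 FPKM (control) and 15.5 FPKM (SAF-A siRNA) at 24 h, then at 17.4 and 1.77 FPKM at 48 h, a log2 change of -2.73 that left 10.1% of control and rested on about 7 reads. BLM (chromosome 15, 91260558 to 91358692, plus strand), the helicase that works with EXO1 and DNA2, was at 9.42 FPKM (control) and 7.39 FPKM (SAF-A siRNA) at 24 h, then at 7.99 and 1.13 FPKM at 48 h. At 24 h EXO1 had overlapping intervals and BLM was lower beyond its intervals (-0.31), and both were far below control in the SAF-A 48 h library.

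The 3 genes of the MRN complex, which binds and tethers broken ends, went different ways. NBN (chromosome 8, 90945564 to 90996899, minus strand), the subunit that recruits ATM, was at 30.6 FPKM (control) and 20.9 FPKM (SAF-A siRNA) at 24 h, then at 32.2 and 7.63 FPKM at 48 h. It had the lowest 24 h log2 change of all 39 genes, -0.53, and stood at -1.94 at 48 h, with separate intervals at both times. MRE11, the nuclease, was at 6.13 FPKM (control) and 6.87 FPKM (SAF-A siRNA) at 24 h, then at 5.44 and 6.82 FPKM at 48 h. RAD50, the tether, was at 11.7 FPKM (control) and 11.1 FPKM (SAF-A siRNA) at 24 h, then at 12.3 and 15.6 FPKM at 48 h. Neither differed from control beyond its intervals at either time, although RAD50 came close at 48 h, with bounds of 11.8 to 12.9 FPKM in control and 12.8 to 18.5 FPKM in SAF-A cells. RBBP8, which encodes CtIP, the partner of MRN that starts resection, had log2 changes of -0.25 and -0.32.

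End joining genes had the highest median of the 6 roles at 48 h, -0.25, with 2 of 6 at least 2-fold lower (XRCC6 and LIG4, against 20.1% of all tested genes) and XRCC4 and NHEJ1 above control. XRCC5 and XRCC6 encode Ku80 and Ku70, the 2 subunits of the ring that holds a broken end, and were by far the highest of the 39 genes. XRCC5 was at 224 FPKM (control) and 199 FPKM (SAF-A siRNA) at 24 h, then at 219 and 217 FPKM at 48 h. XRCC6 (chromosome 22, 42017295 to 42060052, plus strand) was at 263 FPKM (control) and 238 FPKM (SAF-A siRNA) at 24 h, then at 263 and 118 FPKM at 48 h, with an interval of 103 to 132 FPKM in the last library. Both subunits were slightly lower at 24 h, and at 48 h only XRCC6 was, from about 277 reads in the SAF-A library against 851 for XRCC5.

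XRCC4 and LIG4 encode the 2 parts of the ligase that seals the ends, and they differed from control in opposite directions at 48 h. XRCC4 (chromosome 5, 82373317 to 82649579, plus strand) was at 10.9 FPKM (control) and 11.9 FPKM (SAF-A siRNA) at 24 h, then at 15.6 and 27.3 FPKM at 48 h. It was higher at 48 h than at 24 h under both siRNAs, with log2 changes of 0.48 in control and 1.13 in SAF-A cells, and was 0.77 above control at 48 h, each beyond its intervals. LIG4 (chromosome 13, 108859792 to 108870716, minus strand) was at 9.91 FPKM (control) and 10.4 FPKM (SAF-A siRNA) at 24 h, then at 9.46 and 3.38 FPKM at 48 h, a log2 change of -1.26 from about 16 reads. Of their partner factor XLF, encoded by NHEJ1, the levels were 8.23 and 6.29 FPKM at 24 h and 7.05 and 10.4 FPKM at 48 h, lower than control beyond the intervals at 24 h (-0.34) and within them at 48 h (0.50). PRKDC, the catalytic subunit of the DNA-dependent kinase, was 0.48 lower on the log2 scale at 48 h with separate intervals. Its control 24 h value carried a failed status, so no interval stands behind its 24 h change of -0.31.

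**Figure D2:**
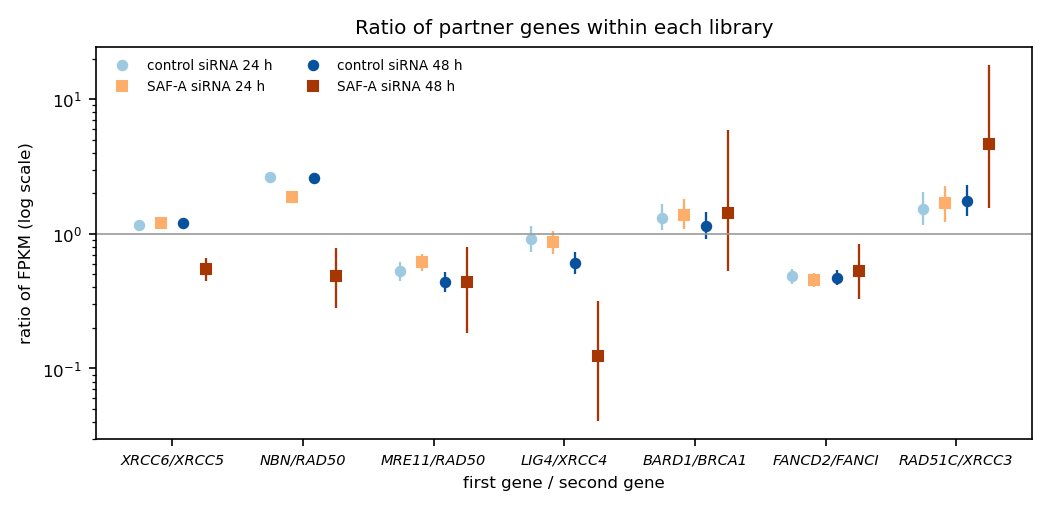
Ratio of the FPKM of 2 genes whose products act in 1 complex (log axis), in each library, for 7 pairs, without RAD51D over XRCC2, which has no upper bound. Points are libraries and vertical lines the range that the deposited 95% bounds of both genes allow. For XRCC6 over XRCC5, NBN over RAD50 and LIG4 over XRCC4 the SAF-A 48 h point lies below the other 3. For FANCD2 over FANCI the ranges of the 4 libraries overlap. For MRE11 over RAD50 those of SAF-A 24 h (0.529 to 0.713) and control 48 h (0.371 to 0.517) do not meet.

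Partners within a complex can be compared inside each library, where depth and scaling are shared, with pairs chosen after the values were seen. The FPKM ratio of XRCC6 to XRCC5 was 1.17 with control and 1.20 with SAF-A siRNA at 24 h, and 1.20 and 0.544 at 48 h, where for SAF-A siRNA the bounds allow 0.447 to 0.656. The ratio of NBN to RAD50 was 2.62 and 1.88 at 24 h and 2.60 and 0.488 at 48 h, and that of LIG4 to XRCC4 was 0.913 and 0.870, then 0.608 and 0.124. In these 3 pairs the range in the SAF-A 48 h library did not meet that of any other library. FANCD2 to FANCI ran from 0.455 to 0.530, MRE11 to RAD50 from 0.437 to 0.617 and BARD1 to BRCA1 from 1.15 to 1.42, with overlapping ranges at 48 h. For RAD51C to XRCC3 the SAF-A 48 h ratio of 4.67 had a range of 1.55 to 18.0, which overlaps the control range of 1.36 to 2.29, and for RAD51D to XRCC2 no upper bound could be given.

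Fanconi genes were below control at 48 h in 9 of 10 cases, against 54.1% of all tested genes, with a median log2 change of -0.65. At least 2-fold lower were 2 of 10, FANCA and FANCM, the same share as among all tested genes (20.1%). FANCA is a subunit of the core complex, the ubiquitin ligase of the pathway, and FANCM is the translocase that anchors the complex on DNA. FANCA (chromosome 16, 89803959 to 89883065, minus strand) was at 10.4 FPKM (control) and 9.80 FPKM (SAF-A siRNA) at 24 h, then at 11.2 and 3.39 FPKM at 48 h, a log2 change of -1.47. FANCM (chromosome 14, 45605136 to 45670093, plus strand) was at 5.40 FPKM (control) and 4.05 FPKM (SAF-A siRNA) at 24 h, then at 5.97 and 1.54 FPKM at 48 h, with log2 changes of -0.34 and -1.45 and separate intervals at both times. FANCA shares 21.5% of its exon bases with ZNF276 on the opposite strand, and since the use of strand is not given in the sources used here, reads of the overlap cannot be told apart. ZNF276 was also lower in that library, at 1.27 FPKM against 3.22 FPKM in its control.

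Other core complex genes spanned the range between. FANCE had the lowest 24 h log2 change of the role, -0.43, at 10.4 and 7.50 FPKM, and was at 6.67 and 4.19 FPKM at 48 h. FANCE was also lower in the control 48 h than in the control 24 h library, so its 24 h control is the high value of the 4. FANCF, an adaptor of the complex, was above control at both times by 0.05 and 0.10, with 3.20 and 3.36 FPKM at 24 h and 2.15 and 2.38 FPKM at 48 h, with overlapping intervals. FANCG was lower at both times beyond the intervals, with log2 changes of -0.20 and -0.93. FANCL, the ligase subunit, stood at -0.31 and -0.62 with overlapping intervals, and it shares 26.1% of its exon bases with VRK2 on the opposite strand, which was higher in the SAF-A 48 h library (24.0 FPKM against 9.38 FPKM). FANCC was the lowest of the role, at 1.74 FPKM in control and 0.569 FPKM in SAF-A cells at 48 h, the latter from about 3 reads with bounds of 0 to 2.34 FPKM.

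The 2 substrates of the core complex, FANCD2 and FANCI, were within 1.5-fold of control at 48 h. Their 48 h log2 changes were -0.34 and -0.51, the second beyond the intervals, and their ratio did not differ between the libraries beyond its bounds. BRIP1, also called FANCJ, a helicase that binds BRCA1, stood at -0.02 at 24 h and -0.67 at 48 h, the latter with separate intervals.

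Among the damage kinases, ATM and CHEK2 of the double-strand break branch differed in opposite directions at 48 h. ATM (chromosome 11, 108093559 to 108239826, plus strand) was at 8.73 FPKM in control (interval 8.42 to 9.04) and 8.12 FPKM in SAF-A cells (7.83 to 8.41) at 24 h. At 48 h it was at 9.11 FPKM (8.79 to 9.42) and 14.3 FPKM (12.4 to 16.2), from about 225 reads in the SAF-A library. ATM was thus slightly below control at 24 h and 1.57 times as high at 48 h, each beyond the intervals. CHEK2 (chromosome 22, 29083731 to 29137822, minus strand), which ATM phosphorylates, was at 9.64 FPKM (control) and 8.43 FPKM (SAF-A siRNA) at 24 h, then at 11.6 and 3.67 FPKM at 48 h, a log2 change of -1.43 that rested on about 7 reads.

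ATR and CHEK1, the kinases of the replication stress branch, were both below control at 48 h. ATR was at 13.5 FPKM (control) and 10.8 FPKM (SAF-A siRNA) at 24 h, then at 13.3 and 7.86 FPKM at 48 h, lower beyond the intervals at both times, by log2 changes of -0.29 and -0.69. CHEK1 was at 18.7 FPKM (control) and 18.7 FPKM (SAF-A siRNA) at 24 h, then at 16.4 and 12.7 FPKM at 48 h, and did not differ beyond its intervals. Of the 2 remaining genes, MSH6, which recognises mismatched bases, was at 49.7 FPKM (control) and 43.7 FPKM (SAF-A siRNA) at 24 h, then at 44.8 and 24.9 FPKM at 48 h, with separate intervals at 48 h. PARP1, which binds strand breaks and builds poly(ADP-ribose) there, was at 39.3 and 34.6 FPKM at 24 h, with separate intervals, and at 38.3 and 35.0 FPKM at 48 h, with overlapping ones.

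**Figure D3:**
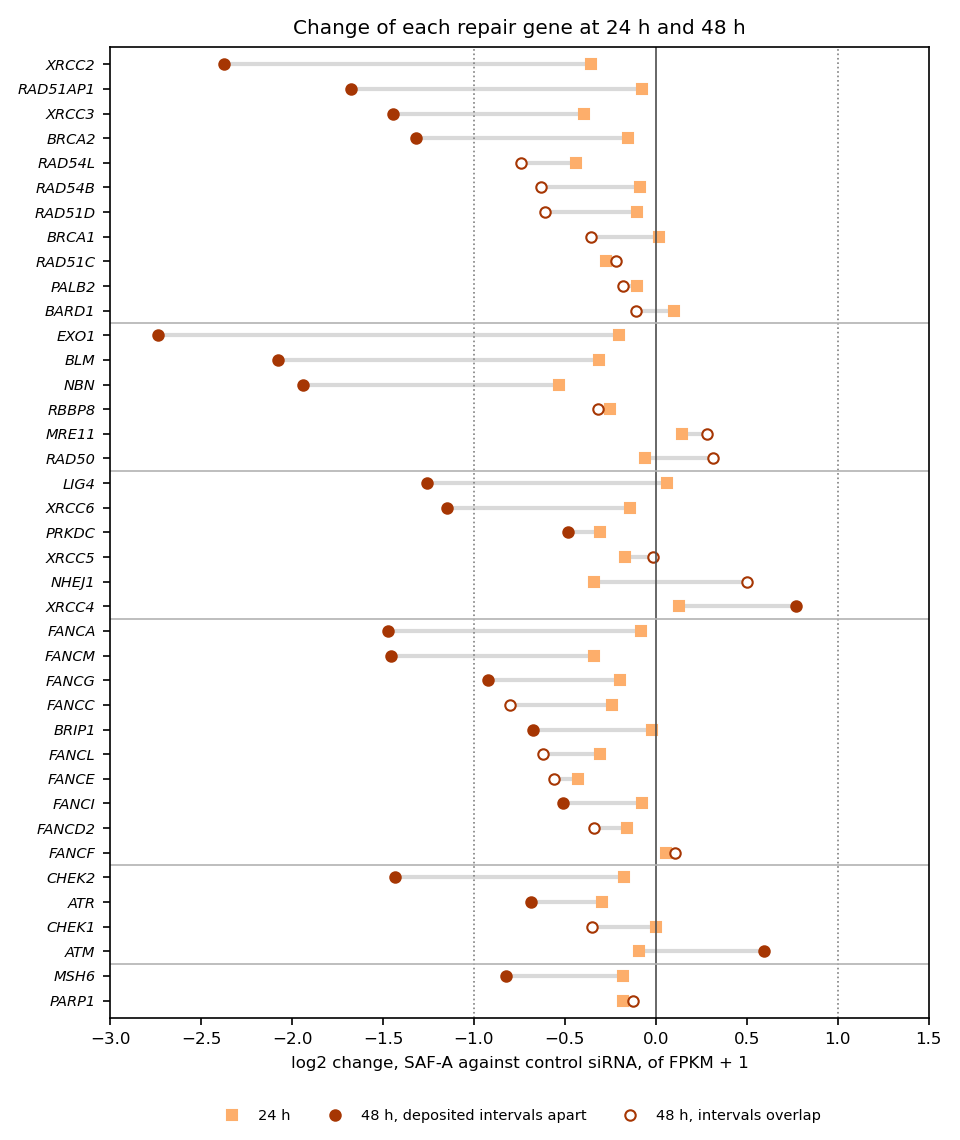
Log2 change with SAF-A siRNA against control at 24 h (squares) and at 48 h (circles) on the log2(FPKM + 1) scale for the 39 repair genes, ordered within each role. Filled circles have deposited intervals that do not overlap and open circles intervals that do, and the dotted lines mark 2-fold. At 24 h the values run from -0.53 to 0.14 and at 48 h from -2.73 to 0.77.

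The plot of the changes sets the narrow 24 h range beside the wide 48 h range. At 48 h, 16 of the 39 genes were within 1.5-fold of control, and 21 were at least 1.5-fold lower. The shares of all tested genes at 1.5-fold are not given here for any comparison. Whether the 1.5-fold counts are unusual therefore cannot be read from them. XRCC5, BARD1, PARP1 and FANCF lay closest to no change, at -0.01, -0.11, -0.13 and 0.10.

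Other genes of the same pathways, taken from lists chosen by function, were lower to a similar extent but included more that were higher. Of 98 further repair genes tested, 27 were at least 2-fold lower at 48 h and 6 higher, with a median log2 change of -0.55, against 12 and 0 of the 39 above. At 24 h their median was -0.16 and 1 gene, PMS2, was 2-fold lower, at 6.26 FPKM in control and 0.0364 FPKM, about 3 reads, in SAF-A cells. PMS2 has near-identical pseudogene copies, so its value is uncertain, and it was named after its value was seen.

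For the counts by pathway, the shares of all tested genes at 48 h were 20.1% lower and 14.2% higher. Of the other recombination genes, 8 of 24 were lower at 48 h and 1 higher (median -0.59). RMI2, a partner of BLM, was at 11.9 FPKM in control and 1.34 FPKM in SAF-A cells, the latter from about 2 reads, and GEN1, a resolvase, at 7.16 and 1.64 FPKM. SEM1, a small partner of BRCA2 and of the proteasome, was higher at 369 FPKM against 110 FPKM, and MUS81, a nuclease subunit, stood at 25.4 FPKM against 17.3 FPKM. Among 17 other Fanconi genes 4 were lower (23.5%) and 2 higher (11.8%), close to those shares (median -0.14). RFWD3, a ubiquitin ligase, was at 20.5 FPKM in control and 2.25 FPKM in SAF-A cells, and CENPS, a partner of FANCM, at 16.0 and 4.76 FPKM. ERCC1, a nuclease subunit, went the other way, at 108 FPKM and a log2 change of 1.41, as did WDR48, a cofactor of the deubiquitinase USP1, at 29.2 FPKM against 8.84 FPKM.

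Of 11 other end joining genes, 2 were lower (median -0.52). POLQ, the polymerase of the alternative route, was at 8.73 FPKM in control and 1.34 FPKM in SAF-A cells. Damage signalling genes gave 7 lower and 1 higher of 23 (median -0.48), with CDC25A, the phosphatase that checkpoints destroy, at 34.5 and 3.75 FPKM and H2AX, the histone variant phosphorylated at breaks, at 38.7 and 7.10 FPKM. UIMC1, which brings BRCA1 to ubiquitin at breaks, was the higher gene, at 13.3 and 35.5 FPKM. Base excision and mismatch repair gave 6 lower and 1 higher of 23 (median -0.60). FEN1, the flap nuclease, was at 81.5 and 14.0 FPKM, NEIL3, a glycosylase, was at 8.39 FPKM in control and listed at 0 in SAF-A cells, and PARP3 was at 4.91 and 21.8 FPKM.

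**Figure D4:**
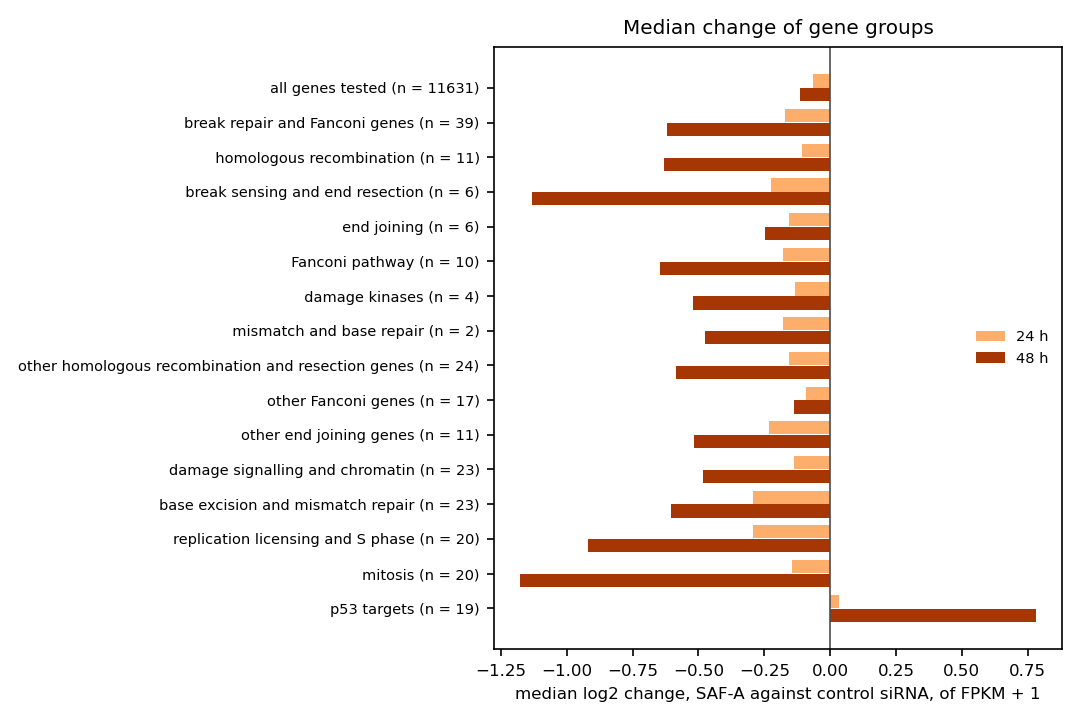
Median log2 change against control at 24 h and 48 h (bars from 0, log2(FPKM + 1) scale) for the 39 repair genes, their roles, the lists of other repair genes, the context lists and all tested genes. The 39 genes are at -0.17 and -0.62, the mitosis list is lowest of the lists at 48 h at -1.18, and the p53 target list is the one above 0, at 0.78.

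Genes of cell division moved in the same library and are given beside the repair genes, and their part in the result was not tested. Of all tested genes, 54.1% were below control at 48 h, 20.1% were at least 2-fold lower and 14.2% higher. Of 20 replication genes all 20 were below control at 48 h and 9 were 2-fold lower, with a median of -0.92. MCM10 was at 13.4 FPKM in control and 0.757 FPKM in SAF-A cells. Of 20 mitosis genes all 20 were below control and 13 were 2-fold lower, with a median of -1.18, and MKI67 was at 11.5 and 2.07 FPKM. At 24 h these medians were -0.29 and -0.15, and the repair genes stood at -0.17. Among 19 p53 targets, 7 were 2-fold higher at 48 h and 1, ZMAT3, was lower, with a median of 0.78. RRM2B, a ribonucleotide reductase subunit used in repair, was at 11.2 FPKM in control and 47.9 FPKM in SAF-A cells at 48 h. The plot of list medians shows the repair genes between all tested genes and the mitosis list at 48 h.

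Several repair genes share a short promoter with a neighbour read the other way, which allows a comparison within 1 stretch of DNA, chosen after the values were seen. For 13 of the 40 genes another gene starts within 1000 bases on the opposite strand, and 12 of those neighbours were tested. The whole stretch between the start sites is printed for 6 of the pairs, those of 4 genes that were 2-fold lower at 48 h and of the 2 that were higher beyond their intervals, as GRCh37 sequence from 5′ to 3′ on the strand of the repair gene (plus for XRCC4, XRCC6 and ATM, minus for LIG4, XRCC3 and CHEK2). The repair gene starts after the last base, and capitals mark CCAAT boxes (CCAAT, or ATTGG where the box is on the other strand). The stretch of the fifth lower gene, RAD51AP1, is left out for its length of 312 bases, and it holds no CCAAT box and 1 CHR element (letters TTTGAA or TTCGAA).
XRCC4 and TMEM167A, chr5:82373273-82373316, 44 bases: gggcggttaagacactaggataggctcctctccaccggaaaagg
LIG4 and ABHD13, chr13:108870717-108870762, 46 bases: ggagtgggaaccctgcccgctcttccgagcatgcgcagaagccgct
XRCC6 and DESI1, chr22:42017062-42017294, 233 bases: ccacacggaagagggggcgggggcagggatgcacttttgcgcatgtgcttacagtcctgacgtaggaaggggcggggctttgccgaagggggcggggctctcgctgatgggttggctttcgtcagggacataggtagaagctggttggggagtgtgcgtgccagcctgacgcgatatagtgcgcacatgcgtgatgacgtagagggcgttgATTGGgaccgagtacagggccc
XRCC3 and ZFYVE21, chr14:104181824-104182080, 257 bases: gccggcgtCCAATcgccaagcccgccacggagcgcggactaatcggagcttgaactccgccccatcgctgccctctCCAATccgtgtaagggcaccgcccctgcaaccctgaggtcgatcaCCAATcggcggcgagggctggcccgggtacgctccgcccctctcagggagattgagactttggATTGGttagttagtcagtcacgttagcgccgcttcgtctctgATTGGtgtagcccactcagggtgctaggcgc
CHEK2 and HSCB, chr22:29137823-29138042, 220 bases: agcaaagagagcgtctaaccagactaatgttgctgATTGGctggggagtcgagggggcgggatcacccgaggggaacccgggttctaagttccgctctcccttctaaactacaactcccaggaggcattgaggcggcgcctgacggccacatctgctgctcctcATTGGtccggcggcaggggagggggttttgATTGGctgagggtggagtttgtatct
ATM and NPAT, chr11:108093366-108093558, 193 bases: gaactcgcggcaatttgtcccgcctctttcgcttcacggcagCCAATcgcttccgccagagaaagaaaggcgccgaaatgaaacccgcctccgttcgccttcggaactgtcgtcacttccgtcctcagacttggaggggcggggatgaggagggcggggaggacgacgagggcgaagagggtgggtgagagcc

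XRCC4 and TMEM167A, a Golgi membrane protein gene, start 45 bases apart and differed in opposite directions at 48 h, each beyond its intervals. TMEM167A was at 29.4 FPKM (control) and 35.3 FPKM (SAF-A siRNA) at 24 h, then at 31.2 and 10.2 FPKM at 48 h, a log2 change of -1.52 where XRCC4 had 0.77. XRCC6 and DESI1, 234 bases apart, were lower together, at -1.15 and -1.57. RAD51AP1 and its neighbour FERRY3 (-1.68 and -0.58), and PRKDC and the replication helicase gene MCM4 (-0.48 and -0.78), were also lower together.

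For other pairs the intervals were apart for 1 gene and not for the other. CHEK2 stood at -1.43 and its neighbour HSCB, a chaperone of iron-sulphur cluster assembly, at 0.66, with 12.6 FPKM in control and 20.5 FPKM in SAF-A cells. LIG4 stood at -1.26 and ABHD13 at 0.11, XRCC3 at -1.44 and ZFYVE21 at 0.46, and ATM at 0.60 and NPAT, a regulator of histone genes, at -0.35. MRE11, above control by 0.28 within its intervals, adjoins ANKRD49, which was lower at -1.07 beyond them. Over the 12 tested pairs, 5 (41.7%) had the same sign at 48 h, against 484 of 899 such pairs among all tested genes (53.8%). Where the intervals were apart in both genes the counts were 3 of 4 and 118 of 208 (56.7%).

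**Figure D5:**
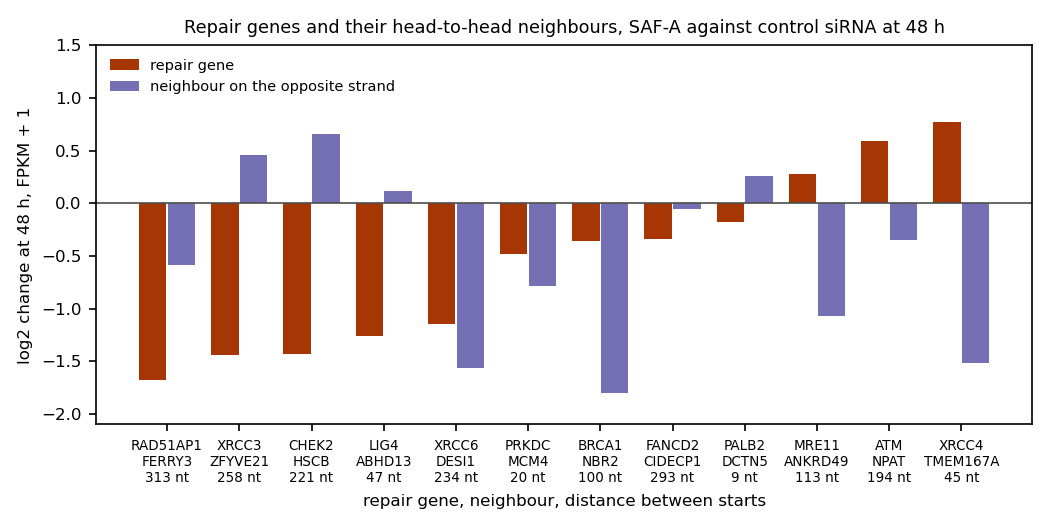
Bars give the log2 change at 48 h, SAF-A against control siRNA on the log2(FPKM + 1) scale, of each repair gene and of the neighbour that starts within 1000 bases on the opposite strand, for the 12 tested pairs with the distance between their starts. In 7 pairs the bars point opposite ways, with XRCC4 and TMEM167A at 0.77 and -1.52 the pair farthest to the right.

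Promoter letters were searched in the 250 bases before the RefSeq start, on both strands, for 35 of the 40 genes (RefSeq, GRCh38.p14). The CCAAT box was found in 15 of 35 (42.9%), in 36.6% of 8833 tested genes and in 33.0% of all 27305 promoters. It was found in 7 of the 11 genes with a promoter entry that were 2-fold lower at 48 h (63.6%) and in 8 of 23 others (34.8%). RAD51AP1 was 1 of the 7, with 1 box and no CHR element in this window. The GRCh37 stretch before its start, described above, held no box and 1 CHR element. The 2 searches thus did not read the same bases for this gene, and its count depends on the start used. XRCC3, with 5 boxes in the sequence above, and CHEK2, BLM and BRIP1, with 3 each in their windows, held the most. E2F sites (TTTCCCGC, TTTGGCGC, TTTCGCGC or TTTGCCGC), the letters bound by the E2F factors of S phase genes, were in 2 of 35 genes, FANCA and FANCC, and in 4.97% of tested genes. CHR elements (TTTGAA or TTCGAA), the letters of late cell cycle promoters, were in 3 of 35, FANCC, BRIP1 and ATM, and in 9.80% of tested genes. A match describes letters in this window and is not a bound site.

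The letters of the siRNA were also compared with the repair transcripts, since a duplex can lower other RNAs through its seed, bases 2 to 8 of the antisense strand, shown in capitals:
antisense strand: uAUUAUAUccgccacgauucccagg
The complementary site, ATATAAT, occurred in the longest transcript of 13 of the 39 genes (33.3%) and of 21.8% of 10924 tested genes of at least 300 nt. The 13 transcripts were longer, with a median of 5464 nt against 3446 nt in the other 26. Their median log2 change was -0.15 at 24 h, and that of the genes without the site was -0.18. At 48 h the medians were -0.63 and -0.59. Over the 10924 genes the medians with and without the site were -0.07 and -0.07 at 24 h and -0.25 and -0.07 at 48 h, and those with the site were also longer (4447 nt against 2662 nt). A part of the seed in any of these values was not tested.

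GC content and length were set beside the changes as well. The 39 transcripts had a median GC content of 42.5%, against 48.1% over tested genes of at least 300 nt, and a median length of 4098 nt against 2995 nt. Across the 39 genes, which share libraries and are not independent replicates, the Spearman correlation of the log2 change with GC content was -0.38 at 24 h and -0.03 at 48 h, and with length 0.22 and 0.02. Across all tested genes of at least 300 nt the GC values were -0.18 and 0.04. These are descriptions across genes within 4 libraries.

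Transcript usage was compared in genes with 2 or more RefSeq transcripts whose level reached 5 FPKM in each library compared. A shift means that at least 0.3 of the gene's FPKM was assigned to other transcripts. At 24 h 4 of 21 repair genes were shifted (9.29% of all such genes), at 48 h 3 of 13 (38.6%), and between the controls 2 of 22 (9.74%). The 24 h genes were XRCC4 (0.999), FANCL (0.544), CHEK2 (0.381) and XRCC3 (0.308). Those at 48 h were CHEK1 (0.581), RBBP8 (0.402) and MSH6 (0.382), and those between the controls XRCC3 (0.410) and RAD51D (0.307).

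XRCC4 gave the largest share difference. NM_003401, of 1651 nt, held 99.9% of the FPKM in the control 24 h library, 99.9% in the control 48 h library and 98.8% in the SAF-A 48 h library. In the SAF-A 24 h library NM_022406, of 1657 nt, held 100% of it, at 11.9 FPKM. The difference was therefore confined to 1 library of the 4 and did not recur with SAF-A siRNA at 48 h. FANCL behaved alike, with NM_018062 at 88.8% and 34.5% of the FPKM at 24 h (control, then SAF-A siRNA) and at 88.9% and 99.6% at 48 h. For CHEK2 the main transcript NM_007194 held 86.2% and 53.7% at 24 h and 88.2% and 0.0451% at 48 h, while NM_145862 held 38.0% in the SAF-A 24 h and 99.9% in the SAF-A 48 h library. For XRCC3 the share of NM_001100118 was 28.04% and 53.5% at 24 h and 17.9% and 99.8% at 48 h. CHEK2 thus differed the same way at both times, and XRCC4 and FANCL did not. In XRCC3 this held for NM_001100118 alone. Its NM_001100119 went from 41.0% to 46.3% at 24 h and from 82.0% to 0.00137% at 48 h. NM_005432 held 31.0% in the control 24 h library but 0.151% in the control 48 h library. XRCC3 also differed more between the controls (0.410) than with SAF-A siRNA at 24 h (0.308). The 48 h SAF-A shares of CHEK2 and XRCC3 rest on about 7 and 13 reads. Their levels there, 3.67 and 4.56 FPKM, were under the minimum of 5 FPKM.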

How the data were processed

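RNA was measured in 4 libraries of RPE1 cells, 1 per siRNA and time. The authors deposited FPKM per RefSeq transcript with a 95% interval and a status flag, per the file headers, and the transcript files also hold a deposited coverage value. Per the submitters' processing notes the tools were TopHat2 2.0.10, Bowtie2 2.1.0, TopHat, Cufflinks 2.2.1 and Cuffdiff, with build hg19; their settings and the use of strand are not given in the sources used here. Of the exons of the 40 genes, 93.5% were identical to a GENCODE 44 exon on GRCh37.

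Rows were added up per symbol, interval ends included, and joined through a RefSeq table (97.1% of 47338 rows), so summed bounds are wide. Genes averaging at least 1 FPKM were compared as differences in log2(FPKM + 1), and 2-fold or more was counted. Mapped reads came from the ratio of coverage to FPKM, and reads per gene were estimated for fragments of 200 ± 80 nt. Where a transcript is 2000 nt long, 1 FPKM was 50.5 to 55.2 reads, or 2.19 in the SAF-A 48 h library. Intervals describe precision inside 1 library and no variation between cultures, and nothing says whether libraries came from separate cultures.

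Named with levels in all libraries were genes with a 2-fold change and separate intervals, those with the largest change of their role, and from each further list up to 2 that were lowest and 2 that were highest at 48 h with separate intervals and an average of 5 FPKM or more. The members and lists were chosen with earlier results of these data known. Partner pairs, neighbours, promoter letters and the siRNA seed were examined after the values were seen. SHLD3, of the signalling list, matched no row, and some genes of the further lists are not reported here. Alternatives were a pseudocount of 0.1, no minimum or 5 FPKM, TPM, centring, 1.5-fold, separate intervals and other transcript limits. Scripts were tested on simulated data. Python 3.11.15, pandas 2.3.3 and numpy 2.4.6 were used.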

Additional observations from a re-analysis of the deposited data

Results flagged for a closer look

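ATM was the gene among the 39 whose value moved in opposite ways at the 2 times with separate intervals at each: its log2 change with SAF-A siRNA was -0.0936 at 24 h (8.12 FPKM against 8.73 FPKM) and 0.5972 at 48 h (14.3 FPKM against 9.11 FPKM). The difference between the times was not tested, since each value rests on 1 library per group, and the 48 h SAF-A library is the shallow one.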

How the results depend on the processing

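No paired analysis was possible because the groups have 1 library each and share no replicate numbers, so no replicate could be left out either; a model pooling the 2 times was not fitted. Of the alternatives, 83 of 92 kept the reported value within its limit (1.5 times a count, or 0.1 on the log2 scale for a median) and 9 did not. Some could not have changed: where a reported count was 0, separate intervals or a minimum of 5 FPKM can only leave it at 0. The 83 therefore overstate how far the results were tried. No median changed sign. Single genes did: after rescaling to TPM all 39 were below 0 at 24 h, against 33 as deposited. Rescaling to TPM moved the 24 h median from -0.17 to -0.34 and the SAF-A median with time from -0.61 to -0.41, and centring moved the latter to -0.73. A 1.5-fold limit gave 2 higher and 21 lower genes at 48 h and 3 higher and 20 lower with time under SAF-A siRNA. The shares of all tested genes at this limit are not given here. Requiring a share difference of 0.5 left 2 genes with shifted transcripts at 24 h and 1 at 48 h. Depth limits the 48 h values, which rest on single-digit reads for 7 genes, and the whole 48 h pattern rests on 1 library of 1216740 reads.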
